A study of Caenorhabditis elegans with 9 samples.

Results

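The *gst* genes of *Caenorhabditis elegans* encode cytosolic glutathione transferases. The members described here are the rows of the deposited table of gene CPM (read counts scaled to library size) named gst- and a number, with a mean of at least 0.3 CPM over 9 libraries. Of 20306 entries in that table, 44 carried such a name and 38 met the minimum. The member just inside it was *gst-32*, at a mean of 0.318 CPM, and the gene just outside it was *gst-18*, at 0.225 CPM. The libraries came from whole animals at the fourth larval stage (L4), and 3 groups of 3 were compared. The control group was wild type, from mothers given vehicle. The second group was mutant for *nhr-114* (allele gk849), which encodes an HNF4-type nuclear receptor, and its mothers also received vehicle. The last group had the same mutation, and its mothers had received 8 µM vitamin B12. Wild type with maternal B12 was not analysed here, so the effect of B12 was measured in the mutant alone. The comparison asks which glutathione transferases were raised in the mutant, and which of these came back down after maternal B12.

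Glutathione transferases join the tripeptide glutathione to reactive, electrophilic compounds, which makes them more soluble and ready for export. In *C. elegans* the family is large, and many of its genes lie side by side in the genome. Several are induced under oxidative and electrophilic stress by SKN-1, the worm counterpart of mammalian Nrf2, and *gst-4* is the usual reporter of that response. The cysteine of glutathione can be made from methionine by transsulfuration, while vitamin B12 is the cofactor of the enzyme that remakes methionine from homocysteine.

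Depth was similar across the libraries, from 14461993 to 16659895 estimated counts. *nhr-114* itself had 6954, 8027 and 7436 counts in wild type and between 2 and 4 in each mutant library, as the genotype labels state. Whether replicates were separate cultures is not stated in the labels; the p-values therefore measure no more than the spread among these 9 libraries, which may be technical. Markers of intestine, hypodermis, body-wall muscle and neurons were present in each group, and none of those measured was at 0 in all libraries; opt-2, unc-17 and cha-1 were not measured. Between mutant vehicle and wild type, 1 of 15 muscle markers and 2 of 13 neuronal markers tested were called. As background for the marker counts here, 18.3% of all genes tested were higher and 18.3% lower in that comparison (36.6% either way). In mutant B12 against mutant vehicle, 22.6% of all genes were higher and 23.8% lower (46.4% either way). The groups differed in markers of spermatogenesis, which begins at this stage. Of 71 such markers tested, 57 were lower in mutant vehicle than in wild type and 62 were higher in mutant B12 than in mutant vehicle. Their summed level was 1374 to 2287 CPM in wild type, 568 to 1043 in mutant vehicle and 2208 to 2551 in mutant B12. The markers fer-14, ssp-9, ssp-11, msd-1, msd-3 and msp-71 of this list were not measured. Of 18 intestinal markers tested, 12 were higher in mutant vehicle than in wild type and 11 were lower in mutant B12 than in mutant vehicle, with sums of 11380 to 14260, 12180 to 14360 and 10640 to 11640 CPM. Of 15 hypodermal markers, 8 were lower and 2 higher in mutant vehicle than in wild type, and 7 were higher and 4 lower with B12, with sums of 9878 to 10080 CPM in wild type, 5344 to 6658 in mutant vehicle and 10330 to 13810 in mutant B12. In RNA from whole animals, fewer cells of a type and less RNA per cell cannot be told apart. The part of these markers in the *gst* results was examined in one way only, by a fit with the spermatogenesis level as a covariate. That level had 87.1% of its variance between the groups, so this fit has little power to tell the level from the groups.

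Transcript levels of the family, per length, were higher in both mutant groups than in wild type. Summed TPM (scaled for transcript length and library total, computed from the estimated counts and effective lengths) was 1515, 1524 and 1562 in the wild-type libraries. It was 2168, 2310 and 2154 in mutant vehicle and 2575, 2426 and 2471 in mutant B12. The 3 groups did not overlap, and the libraries of mutant B12 were the highest. Group means were 1534 ± 25.3 TPM in wild type, 2211 ± 86.4 in mutant vehicle and 2491 ± 76.1 in mutant B12 (SD, n = 3). The difference between the mutant groups was smaller than the rise of *gst-10* alone, from 135 TPM in mutant vehicle to 477 in mutant B12. A few genes made up most of this total. Averaged over the libraries, *gst-1* held 16.1% of the family's TPM and the 10 most abundant members held 81.3%.

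The leading gene of the family was not the same in the 3 groups. In wild type *gst-27* and *gst-1* stood level, at means of 217 and 216 TPM, with libraries that overlapped. In mutant vehicle *gst-1* led with 462 TPM, or 20.9% of the family. *gst-7*, at the rank of 10 in wild type with 56.2 TPM, came next there at 234 TPM. In mutant B12 the highest level belonged to *gst-10*, at 477 TPM or 19.1% of the family. In mutant vehicle *gst-10* had held 135 TPM and the rank of 7. In mutant B12 *gst-1* and *gst-13* followed, at 326 and 312 TPM, and their libraries overlapped, with 311 to 354 TPM for *gst-1* and 293 to 342 TPM for *gst-13*.

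**Figure D1:**
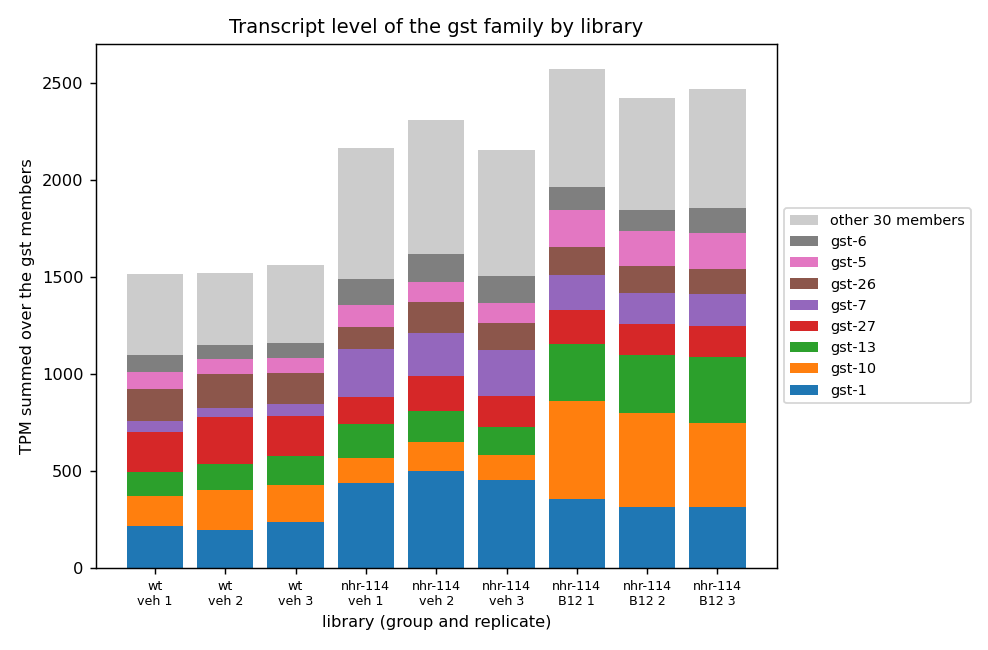
Summed TPM of the 38 gst members in each of the 9 libraries, stacked by gene, with the 8 most abundant members in colour. The totals lie between 1515 and 1562 in wild type, between 2154 and 2310 in mutant vehicle and between 2426 and 2575 in mutant B12, where gst-10 takes the largest coloured segment.

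Of the 38 members, 35 had enough counts to be tested. The test was edgeR's quasi-likelihood test on all 9 libraries, with Benjamini-Hochberg adjustment over 14795 genes and calls at an adjusted p under 0.05. In mutant vehicle against wild type, 18 members were higher and 2 lower, where 18.3% of all genes tested were higher and 18.3% lower (36.6% either way). The median log2 fold change of the members was 0.64, against 0.01 over all genes. In mutant B12 against wild type, 17 members were higher and 1 lower, with 7.28% and 6.13% of all genes as background (13.4% either way). The median was 0.69, against -0.00 over all genes. These 2 comparisons share the wild-type libraries. In mutant B12 against mutant vehicle, 9 members were higher and 9 lower, where 22.6% of all genes were higher and 23.8% lower (46.4% either way), and the median was -0.08 against -0.04. The sign of that last median is not stable: it was 0.18 in the 21 members that pass a filter of 5 CPM in 3 libraries, 0.39 with the spermatogenesis covariate and 0.07 without mutant vehicle replicate 2.

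Of the 35 members tested, 15 (42.9%) were higher than wild type in both mutant groups, a pattern met by 2.96% of all genes tested. Members raised in the mutant and then lowered by maternal B12 numbered 7, with 13.8% of all genes. Read over the 18 members raised in mutant vehicle, B12 lowered 38.9%, raised 27.8% further and left 33.3% without a call. Over all 2714 genes raised in mutant vehicle, these shares were 75.1%, 1.55% and 23.3%. The raised call and the B12 call share the mutant vehicle libraries. Spread in those libraries therefore favours raised and then lowered over raised further, for members and for all genes. With B12, 83.3% of the raised members were still above wild type, against 16.1% of all raised genes. No member was lower than wild type in both mutant groups, as 2.17% of all genes were. With the spermatogenesis level as a covariate, 5 members were higher in mutant vehicle than in wild type (*gst-1*, *gst-7*, *gst-22*, *gst-38* and *gst-39*) and 16 were higher in mutant B12. Over all genes this fit called 2.89% higher in mutant vehicle and 4.52% higher in mutant B12 than in wild type, and 0.0879% higher and 0.581% lower with B12. In that fit 4 members were high in both mutant groups and 1, *gst-22*, was raised and then lowered by B12.

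**Figure D2:**
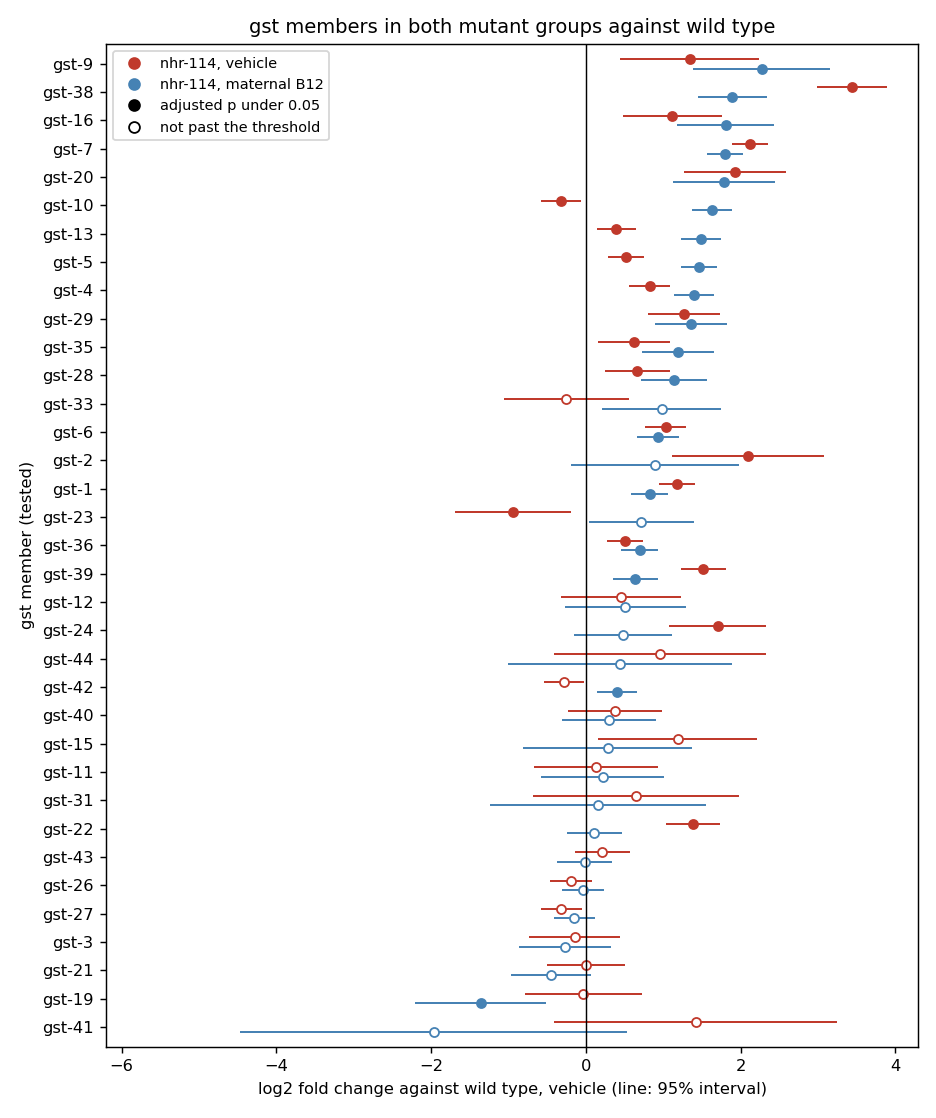
log2 fold change of each of the 35 tested gst members against wild type in mutant vehicle (red) and mutant B12 (blue), with 95% intervals as lines and filled points for an adjusted p under 0.05. The points of gst-38 lie at 3.44 and 1.90, those of gst-10 at -0.32 and 1.63, and those of gst-22 at 1.39 and 0.11.

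The widest swing belonged to *gst-38* (WBGene00001786; WBcel235 chromosome V, 15915162 to 15916070). Normalised CPM was 5.79, 3.95 and 3.61 in wild type, 54.3, 47.7 and 43.3 in mutant vehicle, and 17.01, 13.6 and 19.1 in mutant B12. The groups were fully apart, and the B12 libraries lay between the other groups. *gst-38* was 10.9-fold higher in mutant vehicle than in wild type (log2 3.44 ± 0.20 SE, edgeR adjusted p = 1.11e-06). Maternal B12 lowered it by a log2 change of -1.55 ± 0.18 (edgeR adjusted p = 1.20e-04), and it still stood 3.72-fold above wild type (log2 1.90 ± 0.20, adjusted p = 1.95e-04).

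In *gst-7* (chromosome II, 4882062 to 4883358) most of the rise was kept. It had 37.8, 30.0 and 35.7 CPM in wild type, 157, 145 and 148 in mutant vehicle, and 124, 114.4 and 121 in mutant B12. No libraries overlapped between groups, and those of mutant B12 lay close under those of mutant vehicle. It rose 4.35-fold in mutant vehicle (log2 2.12 ± 0.10, edgeR adjusted p = 2.26e-07). B12 changed it by a log2 value of -0.32 ± 0.09 (adjusted p = 0.0166), and it was 3.48-fold above wild type in mutant B12. Without mutant B12 replicate 2 the decrease missed the threshold, at an adjusted p of 0.0658, without mutant vehicle replicate 1 at 0.0626, and with upper quartile scaling at 0.0533.

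*gst-39* (chromosome II, 15171163 to 15171916) lost more of its rise. Its CPM was 19.2, 14.03 and 14.97 in wild type, 46.1, 49.3 and 42.8 in mutant vehicle, and 25.4, 25.2 and 24.5 in mutant B12. Each B12 library lay above each wild-type library and below each mutant vehicle library. The log2 changes were 1.52 ± 0.13 in mutant vehicle against wild type, -0.88 ± 0.12 with B12 and 0.64 ± 0.13 in mutant B12 against wild type (edgeR adjusted p = 1.38e-05, 3.32e-04 and 0.00822).

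*gst-1* (chromosome III, 9059331 to 9060181), the most abundant member on average, is known in worms to protect dopamine neurons against manganese. It had 137, 120 and 145 CPM in wild type, 284, 334 and 292 in mutant vehicle, and 253, 222 and 238 in mutant B12. Here too the groups were apart, with mutant B12 in the middle. It was 2.26-fold higher in mutant vehicle (log2 1.18 ± 0.10, edgeR adjusted p = 1.68e-05) and 1.77-fold higher in mutant B12 (adjusted p = 5.54e-04). The decrease with B12, -0.35 ± 0.10 on the log2 scale (adjusted p = 0.0145), missed the threshold without mutant B12 replicate 2 (adjusted p = 0.0633) and without mutant vehicle replicate 2 (0.0638). The 4 genes *gst-38*, *gst-7*, *gst-39* and *gst-1* were the members above wild type in both mutant groups and also lowered by B12, a pattern shown by 0.967% of all genes. With the spermatogenesis covariate they were the 4 members high in both mutant groups, and none of their decreases with B12 passed the threshold.

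A group of 6 members was higher than wild type in both mutant groups with no call between these groups, as 1.71% of all genes were. *gst-20* (chromosome II, 13608154 to 13609824) had 22.9, 9.96 and 10.2 CPM in wild type, 53.7, 57.5 and 52.3 in mutant vehicle, and 55.4, 45.2 and 48.4 in mutant B12. The mutant groups overlapped, both lay above wild type, and wild-type replicate 1 was the highest of its group. The rise was 3.79-fold in mutant vehicle and 3.46-fold in mutant B12 (log2 1.92 ± 0.29 and 1.79 ± 0.29, edgeR adjusted p = 9.28e-04 and 0.00405). The difference between the mutant groups was -0.13 on the log2 scale, with a 95% interval from -0.74 to 0.48. *gst-6* (chromosome II, 4879891 to 4881105) had 45.6 ± 6.19 CPM in wild type, 93.1 ± 5.19 in mutant vehicle and 87.0 ± 9.66 in mutant B12 (SD, n = 3). Its mutant groups differed by -0.10 on the log2 scale, with an interval from -0.35 to 0.16. *gst-29* (chromosome II, 15168538 to 15169861) had 3.54, 3.40 and 4.97 CPM in wild type, 8.597, 10.2 and 9.998 in mutant vehicle, and 10.6, 8.40 and 11.7 in mutant B12. It was 2.42-fold and 2.57-fold above wild type, and the mutant libraries overlapped.

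The other members of that group had higher means in mutant B12 than in mutant vehicle, without passing the threshold for that difference. *gst-36* had 46.7 ± 4.51 CPM in wild type, 66.4 ± 6.31 in mutant vehicle and 75.5 ± 2.94 in mutant B12, and *gst-28* had 14.9 ± 3.26, 23.7 ± 4.75 and 33.02 ± 3.53 CPM (SD, n = 3). The adjusted p of edgeR between the mutant groups was 0.154 for *gst-36* and 0.0527 for *gst-28*. For *gst-28* that difference passed the threshold under 10 alternatives, at adjusted p from 0.0190 to 0.0498, among them DESeq2 and RLE scaling. With the spermatogenesis covariate its change in mutant vehicle was -0.22 on the log2 scale, where it was 0.67 without. The call of *gst-28* in mutant vehicle was lost without mutant vehicle replicate 2 (adjusted p = 0.0758) and without wild-type replicate 3 (0.0556). *gst-9* (chromosome II, 4891585 to 4893573) had 2.36, 0.547 and 2.54 CPM in wild type, 5.32, 4.39 and 4.20 in mutant vehicle, and 9.15, 9.85 and 7.55 in mutant B12. Its groups did not overlap, and the edgeR adjusted p between the mutant groups was 0.0581; it passed under 7 alternatives, at 0.00334 to 0.0490. It was 2.54-fold above wild type in mutant vehicle (adjusted p = 0.0233) and 4.84-fold in mutant B12 (adjusted p = 0.00445). The call in mutant vehicle was lost without mutant vehicle replicate 1 (adjusted p = 0.0686) or 3 (0.0511), and in the fit of the 6 libraries compared (0.0575). A gene for a major sperm protein, *msp-33*, overlaps *gst-9* on the opposite strand, with no shared exonic base in the annotation.

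Another 5 members were raised in the mutant and raised further by maternal B12, as were 0.284% of all genes. *gst-4* (WBGene00001752; chromosome IV, 10142225 to 10143099), the standard SKN-1 reporter, had 28.0, 24.5 and 31.9 CPM in wild type. It had 47.1, 55.1 and 47.3 CPM in mutant vehicle and 76.96, 70.7 and 74.7 in mutant B12. The groups did not overlap, and mutant B12 was the highest. *gst-4* was 1.77-fold above wild type in mutant vehicle (log2 0.83 ± 0.11, edgeR adjusted p = 3.34e-04). It rose 1.49-fold from there with B12 (adjusted p = 0.00189), to 2.63-fold above wild type (adjusted p = 2.82e-05). In the annotation *gst-4* shares 65 exonic bases with *dhs-12* on the same strand, so some of its reads could belong to that gene.

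*gst-13* and *gst-5* showed larger steps with B12 than in the mutant alone. *gst-13* (chromosome II, 9231457 to 9232344) had 71.7, 71.3 and 77.7 CPM in wild type, 107, 99.1 and 84.9 in mutant vehicle, and 190, 196 and 233 in mutant B12. Its libraries separated by group, and the B12 libraries stood far above the rest. The log2 change was 0.40 ± 0.11 in mutant vehicle (edgeR adjusted p = 0.0157) and 1.09 ± 0.11 from there with B12 (adjusted p = 5.31e-05). The first of these was lost without mutant vehicle replicate 1 (adjusted p = 0.0691) or 2 (0.0507). *gst-5* (chromosome II, 10950352 to 10951603) had 53.9, 43.2 and 44.7 CPM in wild type, 72.3, 66.8 and 63.9 in mutant vehicle, and 130, 125 and 134 in mutant B12. It too was apart in each group, at 1.43-fold and 2.75-fold above wild type (log2 0.52 ± 0.10 and 1.46 ± 0.10, edgeR adjusted p = 0.00235 and 1.00e-05).

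The other pair of this pattern was less secure. *gst-16* had 1.06, 1.34 and 0.946 CPM in wild type, 2.25, 2.26 and 2.78 in mutant vehicle, and 2.93, 4.13 and 4.75 in mutant B12. Its groups did not overlap, but its rise with B12 had an edgeR adjusted p of 0.0497 and was lost on leaving out any library other than mutant B12 replicate 1, at adjusted p from 0.0511 to 0.158. It was also lost with the replicate block (0.0677), without a filter on low counts (0.0537) and with limma (0.0540). *gst-35* had 9.72 ± 3.12, 14.98 ± 1.57 and 22.2 ± 1.67 CPM (SD, n = 3), and its groups were apart. Its call with B12 (edgeR adjusted p = 0.0389) was lost without any one of the 6 mutant libraries, at adjusted p from 0.0539 to 0.123, and with limma (0.0622). With the spermatogenesis covariate that change was -0.24 on the log2 scale, where it was 0.56 without. Its call in mutant vehicle (adjusted p = 0.0346) was lost without any one of mutant vehicle replicates 1, 2 and 3, wild-type replicates 1 and 2 and mutant B12 replicate 2, at adjusted p from 0.0504 to 0.121, and also with upper quartile scaling (0.0584) and in the fit of the 6 libraries compared (0.0865). Without single libraries the number of members raised further by B12 was between 2 and 5: it was 2 without mutant vehicle replicate 1 or 2, and 3 without mutant vehicle replicate 3 or mutant B12 replicate 2 or 3. With the spermatogenesis covariate it was 0.

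**Figure D3:**
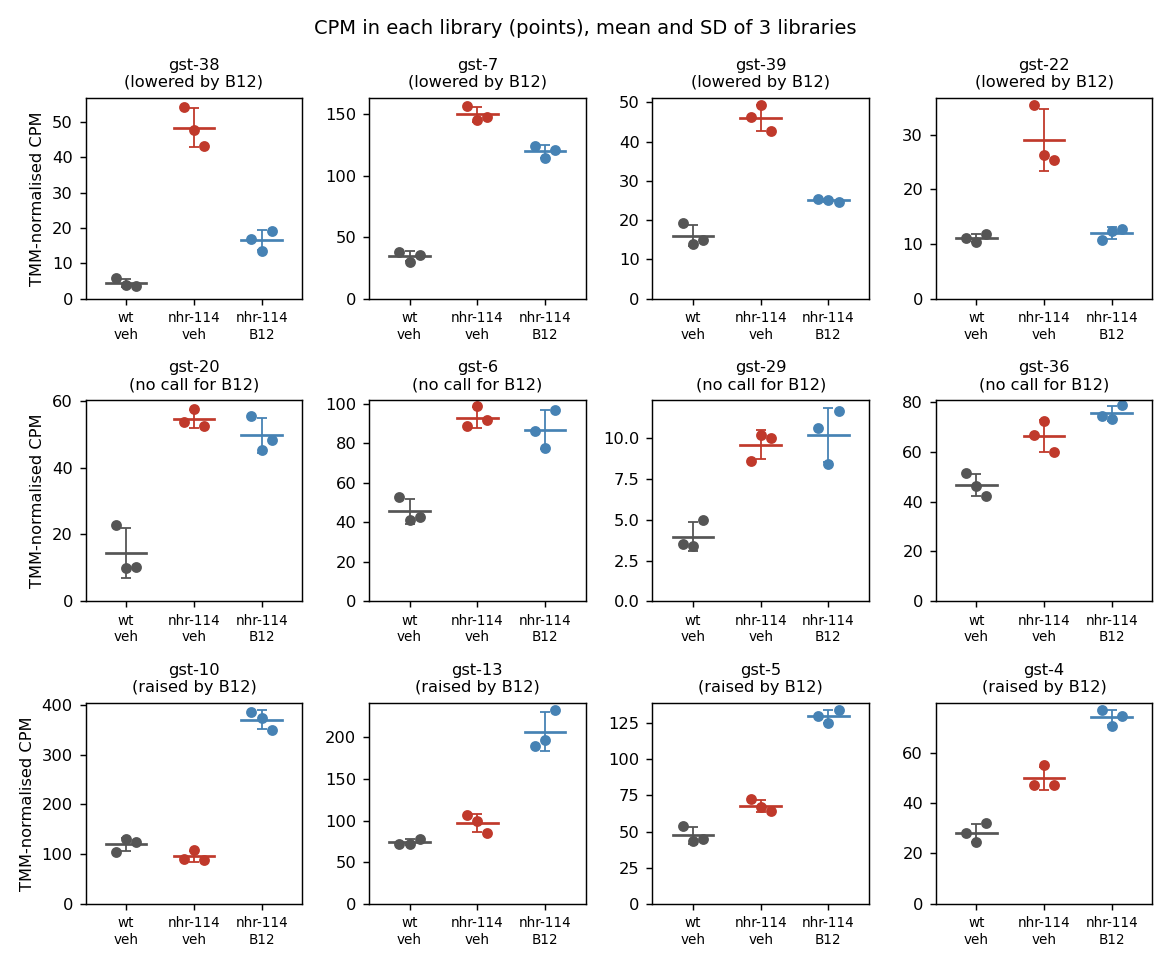
TMM-normalised CPM of 12 gst members in each library (points), with the mean and SD of 3 libraries, in wild type, mutant vehicle and mutant B12. The top row holds members lowered by B12 (gst-38, gst-7, gst-39, gst-22), the middle row members with no call for B12 (gst-20, gst-6, gst-29, gst-36), and the bottom row members raised by B12 (gst-10, gst-13, gst-5, gst-4).

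A return with no call against wild type was found for 3 members, *gst-22*, *gst-24* and *gst-2*, and for 12.8% of all genes. *gst-22* (chromosome V, 16231032 to 16232282) had 11.1, 10.4 and 11.8 CPM in wild type, 35.5, 26.2 and 25.4 in mutant vehicle, and 10.7, 12.5 and 12.7 in mutant B12. The B12 libraries overlapped those of wild type, and mutant vehicle stood above both. It rose 2.61-fold (log2 1.39 ± 0.15, edgeR adjusted p = 8.76e-05) and changed by -1.28 ± 0.15 with B12 (adjusted p = 1.39e-04). Mutant B12 differed from wild type by 0.11 on the log2 scale, with a 95% interval from -0.23 to 0.45. Among the tested members, *gst-22* alone was called lower with B12 when the spermatogenesis level was a covariate.

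*gst-24* (chromosome II, 13610443 to 13611366) had 6.20, 2.55 and 3.55 CPM in wild type, 12.3, 13.8 and 14.01 in mutant vehicle, and 6.28, 5.99 and 4.89 in mutant B12. Wild-type replicate 1 lay among the B12 libraries, and mutant vehicle was above all of these. The changes were 1.70 ± 0.28 and -1.22 ± 0.27 on the log2 scale (edgeR adjusted p = 9.62e-04 and 0.00414). Against wild type, mutant B12 stood at 0.48 with an interval from -0.1446 to 1.104, so a full return was not shown. Without wild-type replicate 1 it was called higher than wild type there (log2 0.90, adjusted p = 0.0275). *gst-2* was a low member, with 7, 3 and 3 counts in wild type, 14, 17 and 22 in mutant vehicle and 8, 6 and 8 in mutant B12. Mutant vehicle was above both other groups. Its decrease with B12 (log2 -1.20 ± 0.41, edgeR adjusted p = 0.0321) was lost without mutant B12 replicate 1, 2 or 3 or mutant vehicle replicate 2 or 3, at adjusted p from 0.0550 to 0.118. It was also lost with the replicate block (0.0540), without a filter on low counts (0.0652) and with DESeq2 (0.0667). *gst-2* shares 89 exonic bases with an antisense transcript, K08F4.15, and no source used here says whether the libraries were stranded. Without mutant B12 replicate 2, the number of members raised and then lowered was 4.

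A further 4 members were not raised in mutant vehicle and were higher after B12, a pattern of 22.3% of all genes. *gst-10* (WBGene00001758; chromosome V, 2561690 to 2564645) conjugates the lipid peroxidation product 4-hydroxynonenal. It had 104.1, 130.4 and 124 CPM in wild type, 89.4, 108 and 88.8 in mutant vehicle, and 387, 375 and 351 in mutant B12. The B12 libraries stood far above both vehicle groups, which overlapped. *gst-10* was 3.88-fold higher in mutant B12 than in mutant vehicle (log2 1.96 ± 0.11, edgeR adjusted p = 3.09e-06) and 3.10-fold higher than in wild type (log2 1.63 ± 0.11, adjusted p = 1.00e-05). It was 1 of the 2 members called higher with B12 under the spermatogenesis covariate; the other was *gst-28*. In mutant vehicle it was called lower than wild type, by a log2 change of -0.32 ± 0.11 (adjusted p = 0.0399). That call was lost on leaving out replicate 2 or 3 of wild type, 1 or 3 of mutant vehicle, or 1 or 2 of mutant B12, at adjusted p from 0.0522 to 0.133, and in the fit of the 6 libraries compared (0.0519).

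*gst-42* (chromosome X, 11726264 to 11727936) encodes maleylacetoacetate isomerase, the zeta-class enzyme of tyrosine breakdown. It had 53.6, 58.2 and 68.8 CPM in wild type, 46.6, 53.1 and 48.9 in mutant vehicle, and 75.98, 75.7 and 87.4 in mutant B12. No groups overlapped, with mutant vehicle lowest and mutant B12 highest. The decrease in mutant vehicle did not pass the threshold (log2 -0.28 ± 0.11, edgeR adjusted p = 0.0694), but did so without wild-type replicate 1 (0.0194), with upper quartile scaling (0.0257) and with DESeq2 (0.0497), while mutant B12 was 1.61-fold above mutant vehicle (adjusted p = 6.92e-04). Against wild type, mutant B12 was 1.32-fold higher (adjusted p = 0.0345), a call lost without any one of mutant B12 replicates 1, 2 and 3, wild-type replicates 1 and 2 and mutant vehicle replicate 3, at adjusted p from 0.0574 to 0.0995, and also in the fit of the 6 libraries compared (0.0755) and with limma (0.0654).

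Low levels limited the other members of this pattern. *gst-23* had 1.42, 1.34 and 2.19 CPM in wild type, 0.887, 0.753 and 0.926 in mutant vehicle, and 3.48, 2.13 and 2.52 in mutant B12. Mutant vehicle lay below the other groups, which overlapped. It was 3.16-fold higher with B12 than in mutant vehicle (edgeR adjusted p = 0.00212), while its decrease in mutant vehicle (log2 -0.94 ± 0.33, adjusted p = 0.0481) was lost without mutant vehicle replicate 1, 2 or 3, wild-type replicate 3 or mutant B12 replicate 2 or 3, at adjusted p from 0.0542 to 0.178. The replicate block (0.0600), no filter (0.0570), the fit of the 6 libraries compared (0.0589) and limma (0.0651) also ended that call. *gst-33* had 1.95 ± 0.43 CPM in wild type, 1.64 ± 0.54 in mutant vehicle and 3.85 ± 1.38 in mutant B12 (SD, n = 3). Its rise with B12 was 2.35-fold (edgeR adjusted p = 0.0147), and it missed the threshold without mutant B12 replicate 3 (0.0563) or mutant vehicle replicate 3 (0.0619).

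Maternal B12 also lowered 2 members that were not raised in mutant vehicle, *gst-19* and *gst-41*, as it did 10.1% of all genes. *gst-19* had 1.00, 0.850 and 1.42 CPM in wild type, 1.02, 1.25 and 0.926 in mutant vehicle, and 0.366, 0.482 and 0.419 in mutant B12. The vehicle groups overlapped and the B12 libraries lay below both. It was the 1 member below wild type in mutant B12 (log2 -1.36 ± 0.38, edgeR adjusted p = 0.0385). That call was lost without any library other than wild-type replicate 2, at adjusted p from 0.0524 to 0.118, and with the replicate block (0.0738), no filter (0.0637), the fit of the 6 libraries compared (0.0719) and DESeq2 (0.05004). Its decrease from mutant vehicle (adjusted p = 0.0157) was lost without mutant B12 replicate 1 (0.0549) or mutant vehicle replicate 2 (0.0593). *gst-41* had 31, 1 and 4 counts in wild type, 26, 25 and 39 in mutant vehicle, and 4, 0 and 4 in mutant B12. Wild-type replicate 1 held a count like that of the mutant vehicle libraries, while the other wild-type libraries were like those of mutant B12. Without that library *gst-41* was called higher in mutant vehicle than in wild type (log2 3.60, adjusted p = 0.00355, against 1.42 and 0.204 with it). Its decrease with B12 (log2 -3.39 ± 1.02, edgeR adjusted p = 0.0206) was lost without mutant B12 replicate 1 or 2 or mutant vehicle replicate 3, at adjusted p from 0.0536 to 0.0591.

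No call was made in any comparison for 11 members, against 6664 of the 14795 genes tested. They included *gst-27* and *gst-26*, neighbours on chromosome II and among the most abundant members. *gst-27* had 131 ± 9.52 CPM in wild type, 105 ± 16.9 in mutant vehicle and 118 ± 6.38 in mutant B12, and *gst-26* had 98.6 ± 3.74, 86.5 ± 15.8 and 96.3 ± 2.12 CPM (SD, n = 3). For *gst-27* the 95% interval of mutant vehicle against wild type ran from -0.57 to -0.06 on the log2 scale, with an edgeR adjusted p of 0.0516. Its decrease passed the threshold with RLE or upper quartile scaling, no filter, the filter of 5 CPM, DESeq2, limma and without mutant vehicle replicate 2, at adjusted p from 0.0119 to 0.0387. For *gst-26* the interval ran from -0.45 to 0.07. Without mutant vehicle replicate 2, *gst-26* was also called lower in mutant vehicle (adjusted p = 0.0383), and both genes were called higher with B12 (0.0462 for *gst-26* and 0.0488 for *gst-27*). *gst-43*, which is grouped with the zeta-class enzymes, had 16.01, 12.8 and 11.2 CPM in wild type, 14.8, 16.9 and 14.6 in mutant vehicle, and 12.3, 12.8 and 14.5 in mutant B12. Wild type overlapped both mutant groups. The others of these 11 were *gst-3*, *gst-11*, *gst-12*, *gst-15*, *gst-21*, *gst-31*, *gst-40* and *gst-44*, with group means from 0.338 CPM (*gst-44* in wild type) to 4.31 CPM (*gst-21* in mutant vehicle). For *gst-15* the interval in mutant vehicle against wild type ran from 0.17 to 2.21 (edgeR adjusted p = 0.0670, and 0.0419 without wild-type replicate 2).

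The 3 members that were not tested in the fit reported had few counts. *gst-8* had 1, 0 and 0 counts in wild type, 7, 10 and 15 in mutant vehicle, and 4, 5 and 12 in mutant B12. *gst-32* had 3, 0 and 3 counts in wild type, 11, 15 and 6 in mutant vehicle, and 3, 4 and 0 in mutant B12. For *gst-8* both mutant groups lay above wild type and overlapped each other; for *gst-32* mutant vehicle lay above both other groups. *gst-14* had 16, 3 and 1 counts in wild type, 22, 7 and 4 in mutant vehicle, and 9, 6 and 8 in mutant B12, with all groups overlapping. The 6 *gst* genes under the minimum, *gst-17*, *gst-18*, *gst-25*, *gst-30*, *gst-34* and *gst-37*, had mean levels from 0.0138 to 0.225 CPM.

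By position, 21 of the 38 members lie on chromosome II, 8 on V, 4 on IV, 3 on X, and 1 each on I and III. Where neighbouring *gst* genes within 10000 bases are joined, 4 runs of 3 or more genes result. The counts in each run are small, and over all genes 18.3% were higher in mutant vehicle, 18.3% lower there, 22.6% higher with B12 and 23.8% lower with B12. In the run *gst-6*, *gst-7*, *gst-8* and *gst-9* (chromosome II, 4879891 to 4893573) all 3 tested members were higher than wild type in both mutant groups. In the other runs, neighbours differed in their calls. In the run from *gst-20* to *gst-18* (chromosome II, 13608154 to 13630887), 3 of 6 tested members were higher in mutant vehicle, and B12 raised 1 (*gst-16*) and lowered 2 (*gst-24* and *gst-19*). There *gst-20* kept its rise with B12 at a log2 value of 1.79, while its neighbour *gst-24* stood at 0.48. In the run from *gst-26* to *gst-35* (chromosome II, 15163817 to 15185389), 4 of 7 tested members were higher in both mutant groups (*gst-28*, *gst-29*, *gst-39* and *gst-35*), and *gst-26* and *gst-27* had no call. In the run *gst-3*, *gst-2* and *gst-4* (chromosome IV, 10139380 to 10143099), *gst-3* had no call, *gst-2* was raised and then lowered, and *gst-4* rose at each step. Of the 16 tested members outside the runs, 6 were higher and 2 lower in mutant vehicle. Close paralogs can share reads; the estimated counts summed to whole numbers, within 0.001, in all 9 libraries for 36 of the 38 members. The exceptions, *gst-10* and *gst-36*, had a fractional sum in 1 library each, and *gst-36* shares 93 exonic bases with *scav-5* on the opposite strand.

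**Figure D4:**
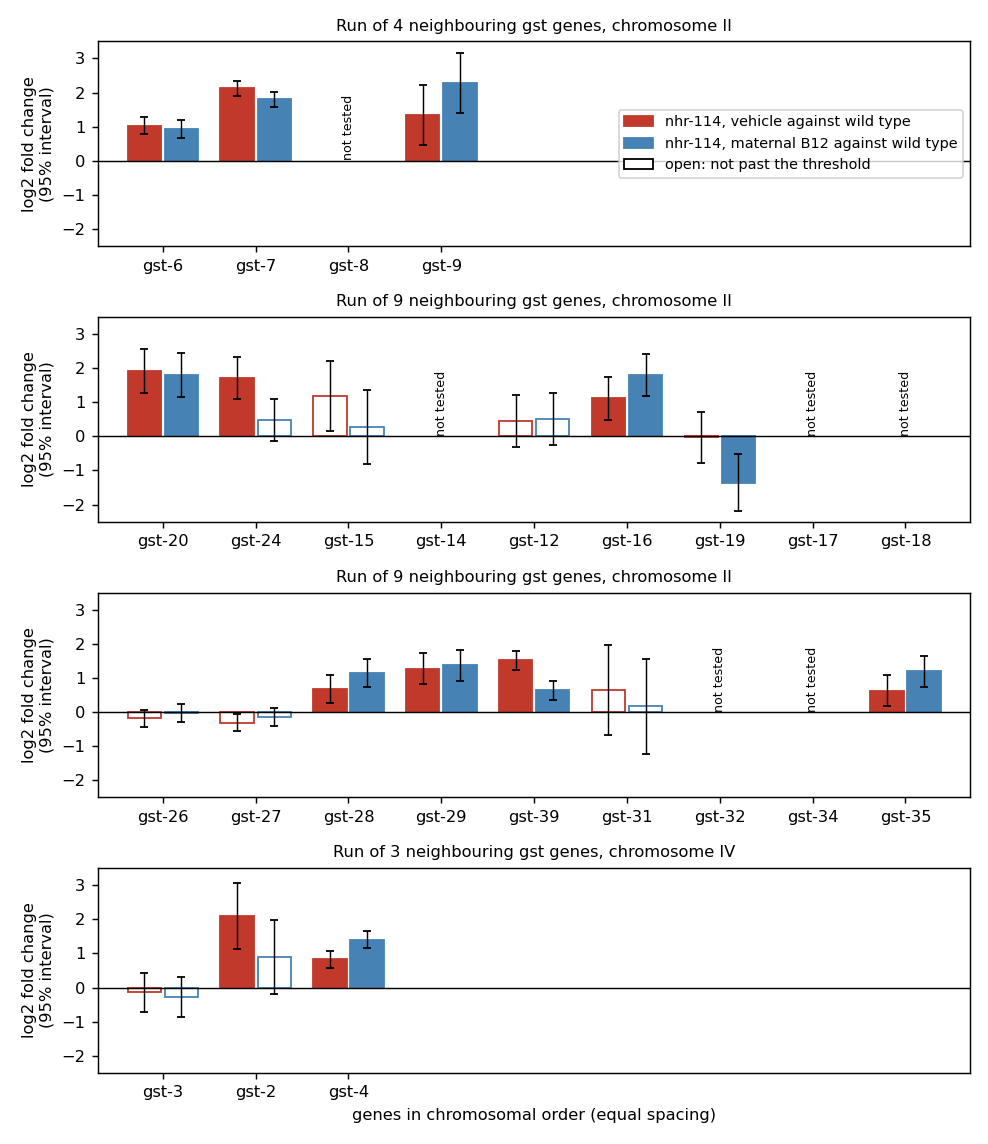
log2 fold change against wild type of the genes in 4 runs of neighbouring gst genes, in chromosomal order with equal spacing, for mutant vehicle (red) and mutant B12 (blue), with 95% intervals; open bars did not pass the threshold. The 3 tested genes of the run with gst-7 are above wild type in both groups, while gst-20 and its neighbour gst-24 stand at 1.79 and 0.48 in mutant B12.

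Over all genes, 18.3% were higher and 18.3% lower in mutant vehicle (36.6% either way). With B12, 22.6% were higher and 23.8% lower (46.4% either way). The list for glutathione synthesis and reduction, which includes the thioredoxin reductase genes *trxr-1* and *trxr-2*, is too small for comparing rates. Of 6 tested, 1 was higher in mutant vehicle than in wild type (*gsr-1*, glutathione reductase, log2 0.31 ± 0.08, edgeR adjusted p = 0.00973), and 1 was lower with B12 (*gss-1*, glutathione synthetase, -0.30 ± 0.08, adjusted p = 0.00909). *gcs-1*, which encodes the rate-limiting enzyme of glutathione synthesis and is a SKN-1 target like *gst-4*, had 143 ± 6.42, 146 ± 1.78 and 129.7 ± 0.911 CPM in wild type, mutant vehicle and mutant B12 (SD, n = 3). Its log2 change in mutant vehicle was 0.03, with a 95% interval from -0.13 to 0.18. Among 5 transferases of the omega and kappa classes, *gstk-1* rose at each step, with 28.4 ± 4.16, 44.03 ± 5.28 and 102.5 ± 5.08 CPM in the 3 groups (log2 0.63 ± 0.13 in mutant vehicle and 1.22 ± 0.12 with B12, edgeR adjusted p = 0.00292 and 5.96e-05). *gsto-1* was lower in mutant B12 than in wild type (log2 -0.68 ± 0.14, edgeR adjusted p = 0.0103).

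The *mrp* genes encode exporters of glutathione conjugates. Of 8 tested, 7 were higher in mutant vehicle than in wild type, B12 lowered 5, and in mutant B12 1 was higher (*mrp-7*) and 1 lower (*mrp-4*) than in wild type. Over all genes, 18.3% were higher and 18.3% lower in mutant vehicle, and 22.6% were higher and 23.8% lower with B12. In mutant B12 against wild type, 7.28% were higher and 6.13% lower. These shares are also the background for the small peroxidase and redoxin lists below. *mrp-4* had a log2 change of 0.96 ± 0.18 in mutant vehicle, -1.92 ± 0.18 with B12 and -0.96 ± 0.18 in mutant B12 against wild type (edgeR adjusted p = 0.00213, 4.74e-05 and 0.00670). Of 6 glutathione peroxidase genes tested, 3 were higher (*gpx-1*, *gpx-2* and *gpx-6*) and 1 lower (*gpx-5*) in mutant vehicle. B12 raised 1 (*gpx-5*) and lowered 2 (*gpx-3* and *gpx-7*), and the lowered genes were not among those raised in mutant vehicle. In mutant B12 against wild type, 3 were higher (*gpx-1*, *gpx-2* and *gpx-5*) and 1 was lower (*gpx-7*). Of 11 glutaredoxin, thioredoxin and peroxiredoxin genes, 5 were higher in mutant vehicle, and B12 raised 2 and lowered 4. In mutant B12 against wild type, 1 was higher (*trx-3*) and 0 were lower. *trx-3* rose at each step (log2 1.14 ± 0.38 in mutant vehicle and 1.90 ± 0.36 with B12, edgeR adjusted p = 0.0421 and 0.00244).

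Of 14 genes that act on SKN-1, or encode it, 8 were higher and 1 lower in mutant vehicle, and B12 lowered 5 and raised 0. Over all genes, 18.3% were higher and 18.3% lower in mutant vehicle, and 22.6% were higher and 23.8% lower with B12. These shares are also the background for the small readout and tyrosine lists below. In mutant B12 against wild type, 1 of the 14 was higher (*skn-1*) and 2 were lower (*nsy-1* and *mdt-15*), where 7.28% and 6.13% of all genes were. *skn-1* itself was higher in both mutant groups (log2 0.70 ± 0.09 and 0.52 ± 0.08, edgeR adjusted p = 1.65e-04 and 0.00312). *wdr-23*, whose product marks SKN-1 for degradation, was higher in mutant vehicle (0.54 ± 0.11, adjusted p = 0.00409) and lower with B12 (-0.83 ± 0.12, adjusted p = 3.07e-04). Of 5 tested SKN-1 readouts outside the *gst* family, 2 were higher and 1 lower in mutant vehicle, and B12 lowered 3. Against wild type, 0 of these 5 were higher in mutant B12, and 1, *dhs-8*, was lower (log2 -1.95 ± 0.27, edgeR adjusted p = 0.00120). Over all genes 7.28% were higher and 6.13% lower there, and 5 genes are too few to be told from those shares. Of 6 tyrosine breakdown genes, which include *gst-42* and *gst-43*, 1 was higher and 1 lower in mutant vehicle, and B12 raised 1 (*gst-42*) and lowered 2.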

How the data were processed

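RNA was extracted from whole L4 animals, and reads were quantified by kallisto 0.46.0 against a WormBase reference (WS245) after demultiplexing by bcl2fastq, per the labels and the submitters' processing notes. The authors deposited estimated counts of 30939 transcripts per sample, which are not normalized, with transcript and effective lengths, per the file headers. They also deposited a CPM table per gene; 366 of its 366 *gst* values above 0 were within 1% of the CPM from summed counts. Reads shared by similar transcripts are divided by a model in kallisto, which can make close paralogs uncertain. Among the 38 members, 36 had sums that were whole numbers, within 0.001, in all 9 libraries.

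Estimated counts were summed per gene (20444 genes), rounded and tested with edgeR 4.0.16 in R 4.3.3: filterByExpr, TMM scaling, 1 robust quasi-likelihood fit to the 9 libraries, and Benjamini-Hochberg adjustment (14795 genes). Printed CPM values are TMM-normalised, except the means that set the minimum of 0.3 CPM and those of the genes under it, which are of the deposited CPM. Coordinates come from the WBcel235 annotation, since the files hold none. Wild type, mutant vehicle and mutant B12, with 3 libraries each, were grouped from the labels. The code was tested on simulated data. All replicate pairs differed beyond sampling noise.

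The alternatives tried were scaling by RLE or upper quartile, no filter on low counts, a filter of 5 CPM in 3 libraries, fits limited to the 6 libraries of a comparison, DESeq2 1.42.0, limma 3.58.1 on log2(deposited CPM + 1), a replicate block, a spermatogenesis covariate (mean log2 CPM of 71 markers, prior count 2) and leaving out each library. Members and gene lists were chosen with earlier results of these data known. Values in each library are given, by rule, for *gst-4*, *gst-42* and *gst-43* and the largest called changes of each comparison. Others given per library were chosen after their values were seen. Calculations also used Python 3.11.15, pandas 2.3.3, numpy 2.4.6 and matplotlib 3.10.9.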

Additional observations from a re-analysis of the deposited data

How the results depend on the processing

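The 18 members higher in mutant vehicle, the 17 higher in mutant B12 than in wild type and the 15 high in both stayed within 1.5 times these numbers under every alternative run except the spermatogenesis covariate for the first and last. That covariate, with a variance inflation of 7.76, gave 5 higher and 0 lower in mutant vehicle, 2 higher and 1 lower with B12, 0 below wild type in mutant B12, 4 high in both, 1 raised and then lowered and 0 raised further. The cause was not tested. The 2 members lower in mutant vehicle became 4 with upper quartile scaling or DESeq2, 1 with the replicate block and 0 in fits of the 6 libraries compared. The 1 below wild type in mutant B12 became 0 without a filter, with 5 CPM in 3 libraries, in fits of the 6 libraries, with the replicate block and with DESeq2. The 5 raised further became 3 with limma. Leaving out single libraries gave 16 to 19 higher and 0 to 3 lower in mutant vehicle, 6 to 10 higher and 5 to 10 lower with B12, 16 to 18 higher and 0 to 1 lower in mutant B12 against wild type, 13 to 16 high in both, 4 to 8 raised and then lowered, and 2 to 5 raised further.

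Correlations of deviations from group means ran from -0.22 to 0.37 for libraries with the same replicate number and from -0.42 to 0.27 for the others. With 3 libraries per group, these values cannot decide whether replicate numbers pair the samples. With the replicate block, 18 members were higher in mutant vehicle, and 8 were higher and 8 lower with B12. For the 18 members given per library by rule, 955 values were computed under the alternatives: 837 kept direction and call, 92 lost the call, 12 gained it and 14 changed sign. Over all tested members, 123 of 997 values of the 56 calls were lost and 34 calls were gained. The covariate turned 2 calls, *gst-28* in mutant vehicle (-0.22) and *gst-35* with B12 (-0.24). Among the 18 members its sign changes were *gst-19* in mutant vehicle (0.068), *gst-20* with B12 (0.84), *gst-22* in mutant B12 against wild type (-0.0549) and *gst-43* in each comparison (-0.26 in mutant vehicle, 0.42 with B12, 0.16 against wild type); no filter gave 0.0071 for *gst-43* against wild type. Leaving out single libraries gave -0.18 to 0.20 for *gst-19* in mutant vehicle (positive without replicate 3 of wild type or of mutant vehicle) and -0.0131 to 0.21 for *gst-29* with B12 (negative without mutant B12 replicate 3). In mutant B12 against wild type it gave -2.499 to 0.22 for *gst-41* (positive without wild-type replicate 1) and -0.13 to 0.13 for *gst-43* (positive without wild-type replicate 1 or mutant B12 replicate 1 or 2). None of the 14 values that changed sign among the 18 members was a call in the fit reported. The 3 untested members had too few counts for the filter of the fit reported. Some alternatives kept them. Without a filter *gst-8* was called higher than wild type in both mutant groups, and with limma in mutant vehicle. With limma *gst-32* was called higher in mutant vehicle and lower with B12. Some fits without single libraries also called these genes, and the ranges given for leaving out libraries include such calls.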
